A study of Homo sapiens with 14 samples.

Results

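The genes described here are the axon guidance ligands and receptors, 69 of the 25952 genes counted. The cells are NT2, a line derived from a human embryonal carcinoma. Members were matched by gene symbol, with no threshold on a measured value, although earlier results of these data were known when the families were chosen. There are 35 ligands and 34 receptors: 8 ephrins and 14 Eph receptors, 7 secreted and 13 membrane-bound semaphorins, 9 plexins and 2 neuropilins, 3 Slits and 4 Robo receptors, 4 netrins, and 5 netrin receptors. The library groups are retinoic acid (RA) for 5, 10 and 21 days, bone morphogenetic protein 2 (BMP2) for 5, 10 and 21 days, and untreated cells at day 0, with 2 libraries in each of the 7 groups. RA was all-trans retinoic acid in DMSO at a final 10 µM and was used to induce neurons. BMP2 was used to induce muscle cells, at 30 ng/ml in the first tests and 40 ng/ml later, and the dose of each library is not stated. The series concerns nucleotide excision repair during differentiation of these cells. All groups are the same tumour line in serum-containing medium, and no untreated or DMSO libraries of days 5 to 21 are analysed here. Effects of a factor and of time in culture therefore cannot be told apart against day 0. The labels do not say that the libraries of a group came from separate cultures, so p-values measure the spread between these samples, which may be technical.

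Axon guidance molecules steer growing axons and migrating cells by attraction or repulsion. Ephrins are membrane-bound and bind Eph receptor tyrosine kinases on neighbouring cells. Class 3 semaphorins are secreted and act through neuropilins paired with plexins, while other semaphorins are held in the membrane and bind plexins directly. Slits repel through Robo receptors, and netrins attract through DCC or repel through UNC5 receptors. The same families also act outside the nervous system, in blood vessels, heart, kidney and connective tissue.

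Levels are given as CPM, the TMM-scaled count relative to the library total, for replicates 1 and 2 of each group in that order. They are not divided by gene length, so levels of different genes are not compared. Total counts ran from 45773278 to 75754396 per library, and a CPM of 0 allows at most 0.0403 to 0.067 CPM in the 14 libraries, which is 3 counts. Floors cover counting error only. In bulk RNA, fewer cells of a type and less RNA per cell cannot be told apart. The counts may include reads in introns, and reads of overlapping genes can be counted with members. EFNA3, SEMA4G, EFNB2, PLXNB3, ROBO4 and EFNA4 share 15.0% to 44.7% of their exon bases with exons of other genes, and the other members 5.4% or less. The whole spans of NTN5 and SEMA4G lie within other genes, as do 99.7% of that of EFNA4 and 91.6% of that of EFNA3.

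The BMP2 day 10 libraries stood apart from each other. Their log2(CPM + 1) values correlated at r = 0.891 over genes with a mean of at least 1 CPM. For these correlations CPM was scaled to library totals alone, without TMM factors. Replicate 1 was nearest to BMP2 day 5 replicate 2 (r = 0.993), and replicate 2 was nearest to BMP2 day 21 replicate 2 (r = 0.967). RA day 10 replicate 2 was nearest to RA day 5 replicate 1 (r = 0.971). The members follow the same split. SEMA6A had 214 and 34.5 CPM in the BMP2 day 10 libraries, ROBO2 84.9 and 11 CPM, EPHB3 86.1 and 10.6 CPM, NTN4 1.53 and 81.8 CPM, and EPHA3 0.497 and 19.6 CPM. In each of these 5 genes, chosen after their values were seen, replicate 1 resembled the BMP2 day 5 libraries and replicate 2 lay on the side of the BMP2 day 21 libraries.

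Marker genes of other cell types moved with the groups. The summed CPM of 8 pluripotency markers was 1799 to 2756 at RA day 5, 679 to 932 at RA day 10 and 185 to 188 at RA day 21. It was 811 to 959, 199 to 1018 and 176 to 181 CPM at the same BMP2 days, against 7778 to 8816 CPM in untreated cells. The 6 neural progenitor markers summed to 780 to 874, 460 to 913 and 216 to 220 CPM at RA days 5, 10 and 21. They summed to 618 to 917, 63.3 to 865 and 14.1 to 23.1 CPM at the same BMP2 days, against 404 to 440 CPM in untreated cells. Of the neuronal markers 10 were analysed here. They summed to 330 to 374, 842 to 1138 and 607 to 646 CPM at RA days 5, 10 and 21 and to 257 to 353 CPM in BMP2 cells, against 276 to 304 CPM in untreated cells. At RA day 21, 3 of the 10 rose and 2 fell, beside 23.4% and 21.1% of all genes. All of these calls were firm, beside firm rises in 11.7% and firm falls in 11.3% of all genes. NEFM had 358 and 359 CPM there, MAP2 133 and 171 CPM and SNAP25 32.5 and 30 CPM, against 32 and 28.4, 30.9 and 33.4, and 1.1 and 0.751 CPM in untreated cells, while STMN2, ELAVL3, ELAVL4 and RBFOX3 averaged under 1 CPM in the RA day 21 libraries. The 8 mesenchymal markers summed to 134 to 499, 728 to 1792 and 5859 to 5890 CPM at RA days 5, 10 and 21. They summed to 2288 to 3560, 2135 to 13900 and 31662 to 33207 CPM at the same BMP2 days, against 56.0 to 56.9 CPM in untreated cells. The 8 smooth muscle markers summed to 67.3 to 332 CPM in RA cells and 367 to 1337 CPM in BMP2 cells, against 46.2 to 101 CPM in untreated cells. The 8 striated muscle markers summed to 31.6 to 98.7 CPM in RA cells and 216 to 1928 CPM in BMP2 cells. Untreated cells had 32.5 to 83.9 CPM. Of the BMP2 sums, ACTC1 held 1765 and 272 CPM at day 5 and TNNT2 204 and 172 CPM at day 21. Of the 6 tested, 3 rose and 0 fell at BMP2 day 5, beside 15.9% and 13.4% of all genes. At BMP2 day 21, 1 rose and 2 fell, beside 25.0% and 22.1%. The skeletal muscle genes MYOD1, MYOG and CKM averaged under 1 CPM in all BMP2 groups. The 7 endothelial markers analysed here summed to 64.1 to 160 CPM in RA cells and 128 to 379 CPM in BMP2 cells, against 97.6 to 157 CPM in untreated cells. At BMP2 day 21, 2 of the 7 rose and 1 fell, beside 25.0% and 22.1% of all genes. KDR had 302 and 188 CPM there and ERG 14.2 and 12.6 CPM, against 62.4 and 27.6 and 0.629 and 0.515 CPM in untreated cells, while CDH5, CLDN5 and TIE1 averaged under 1 CPM in the 3 BMP2 groups. The 7 glial markers summed to 52.0 to 146 CPM in all 14 libraries. At RA day 21, 3 rose and 2 fell, beside 23.4% and 21.1% of all genes. The counts were the same at BMP2 day 21, beside 25.0% and 22.1%. AQP4 had 8.5 and 9.71 CPM at RA day 21 and 46.6 and 27.1 CPM at BMP2 day 21. It had 0.264 and 0.278 CPM in untreated cells, and GFAP averaged under 1 CPM in every group. The 5 neural crest markers summed to 22.8 to 230 CPM. At BMP2 day 5, 2 rose and 1 fell, beside 15.9% and 13.4% of all genes. TFAP2A had 35.7 and 53.9 CPM there, against 0.568 and 1.7 CPM in untreated cells, and SOX10 averaged under 1 CPM in every group. FOXD3 had 0.152 and 0.141 CPM at BMP2 day 5, against 12.4 and 11.7 CPM in untreated cells. Most of the sum at BMP2 day 5 was ETS1, with 193 and 133 CPM, against 67.7 and 95.9 CPM in untreated cells. The part of these cell types in the changes described below was not tested.

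Most of the members that changed on treatment rose. Together the members held 0.212% to 0.462% of the counts of a library, and their CPM summed to 2919 to 4702 in treated libraries, against 2378 and 2235 in untreated ones. Against untreated cells, 14 members rose and 1 fell at RA day 5, where 5.59% of all 19142 tested genes rose and 2.72% fell. At RA day 10, 29 rose and 4 fell, beside 12.9% and 11.1% of all genes. At RA day 21, 28 rose and 10 fell, beside 23.4% and 21.1%. In BMP2 cells 23 members rose and 7 fell at day 5, beside 15.9% and 13.4% of all genes. There 26 rose and 9 fell at day 10, beside 19.8% and 16.4%, and 27 rose and 13 fell at day 21, beside 25.0% and 22.1%. Of the 68 members tested, these counts are 22.1%, 48.5% and 55.9% called at RA days 5, 10 and 21, beside 8.31%, 24.0% and 44.6% of all genes, and 44.1%, 51.5% and 58.8% at the BMP2 days, beside 29.2%, 36.3% and 47.1%. The median log2 fold change of the members was 0.56, 1.14 and 1.19 in RA and 0.47, 0.67 and 1.03 in BMP2, while the median of all genes lay between 0.00 and 0.10. Only ROBO4, with 0 to 11 counts per library, was too low to test.

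**Figure D1:**
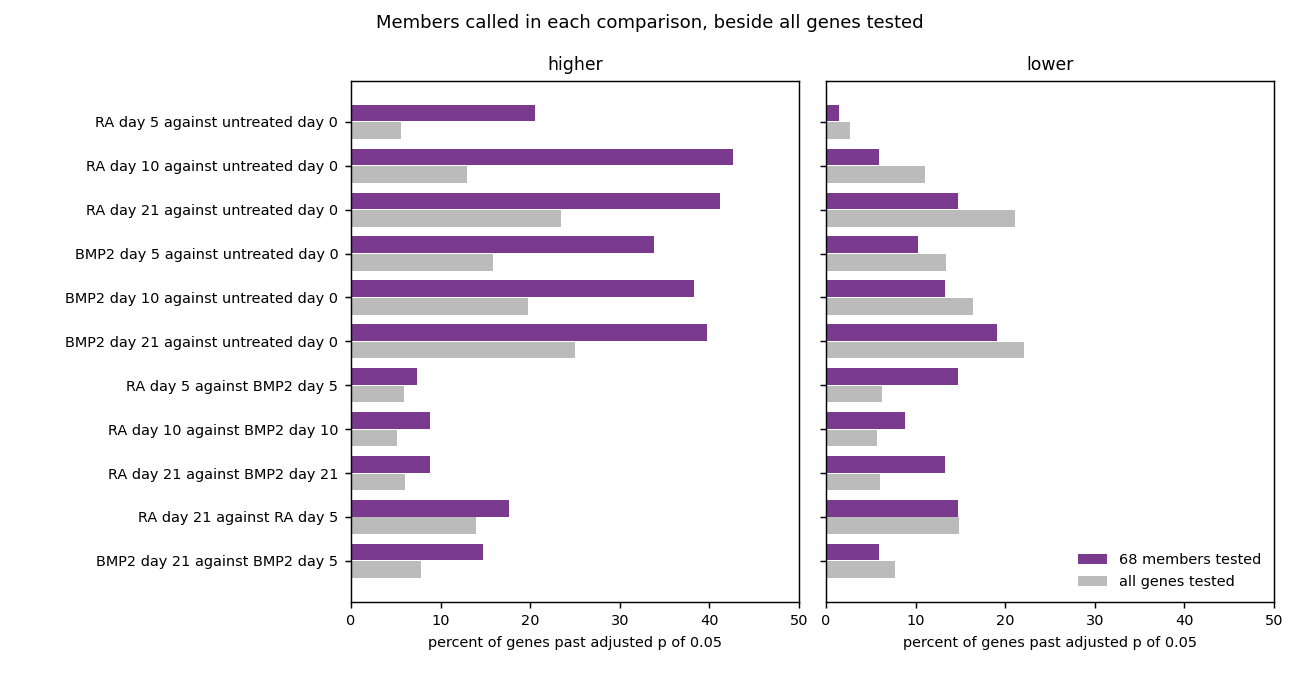
Share of the 68 members tested (purple) and of all 19142 genes tested (grey) with an adjusted p under 0.05, in percent on the horizontal axes, for 11 comparisons, higher on the left and lower on the right. At RA day 10 the share of members that rose is 29 of 68, beside 12.9% of all genes.

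A call was made at a Benjamini-Hochberg adjusted p under 0.05 in edgeR's quasi-likelihood test over all 14 libraries. Each library was also left out in turn, and a call is termed firm where it held in all 14 of those fits. Firm calls numbered 5 higher and 0 lower members at RA day 5, beside 1.15% and 0.293% of all genes. There were 9 and 2 at RA day 10, beside 3.84% and 2.44%, and 17 and 5 at RA day 21, beside 11.7% and 11.3%. For BMP2 there were 15 and 2 at day 5, beside 5.93% and 4.17%, 15 and 5 at day 10, beside 8.51% and 7.91%, and 17 and 7 at day 21, beside 13.9% and 12.6%. In a fit of only the 4 libraries compared, every firm call held at 5 of these 6 times. The exception was BMP2 day 10, where 10 of the 20 firm calls held, so fold changes at BMP2 day 10 are given below for those 10 and for NTN4, whose call rested on 1 library.

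Across the 6 comparisons, which share the untreated libraries, 10 members (14.7% of those tested, beside 3.24% of all genes) rose in all: SEMA3B, SEMA3C, SEMA3D, SEMA6D, NRP1, PLXNA2, PLXNA3, EFNA1, EFNB2 and EPHB3. All 6 calls were firm for 3 of them, SEMA3B, SEMA3C and PLXNA2, beside 0.632% of all genes. At least 1 rise was found for 36 members (52.9%, beside 35.1% of all genes) and at least 1 fall for 14 (20.6%, beside 30.9%). Both directions were found for 0 members, beside 1.24% of all genes, and 18 members (26.5%, beside 35.3%) passed in none. PLXNC1 alone fell at all 3 RA days, beside 2.03% of all genes. EPHA1, EPHA8, SEMA3G, SEMA4A, SEMA4D, SEMA6B and UNC5A fell at all 3 BMP2 days, which is 10.3% of the members tested and near the 10.2% of all genes.

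**Figure D2:**
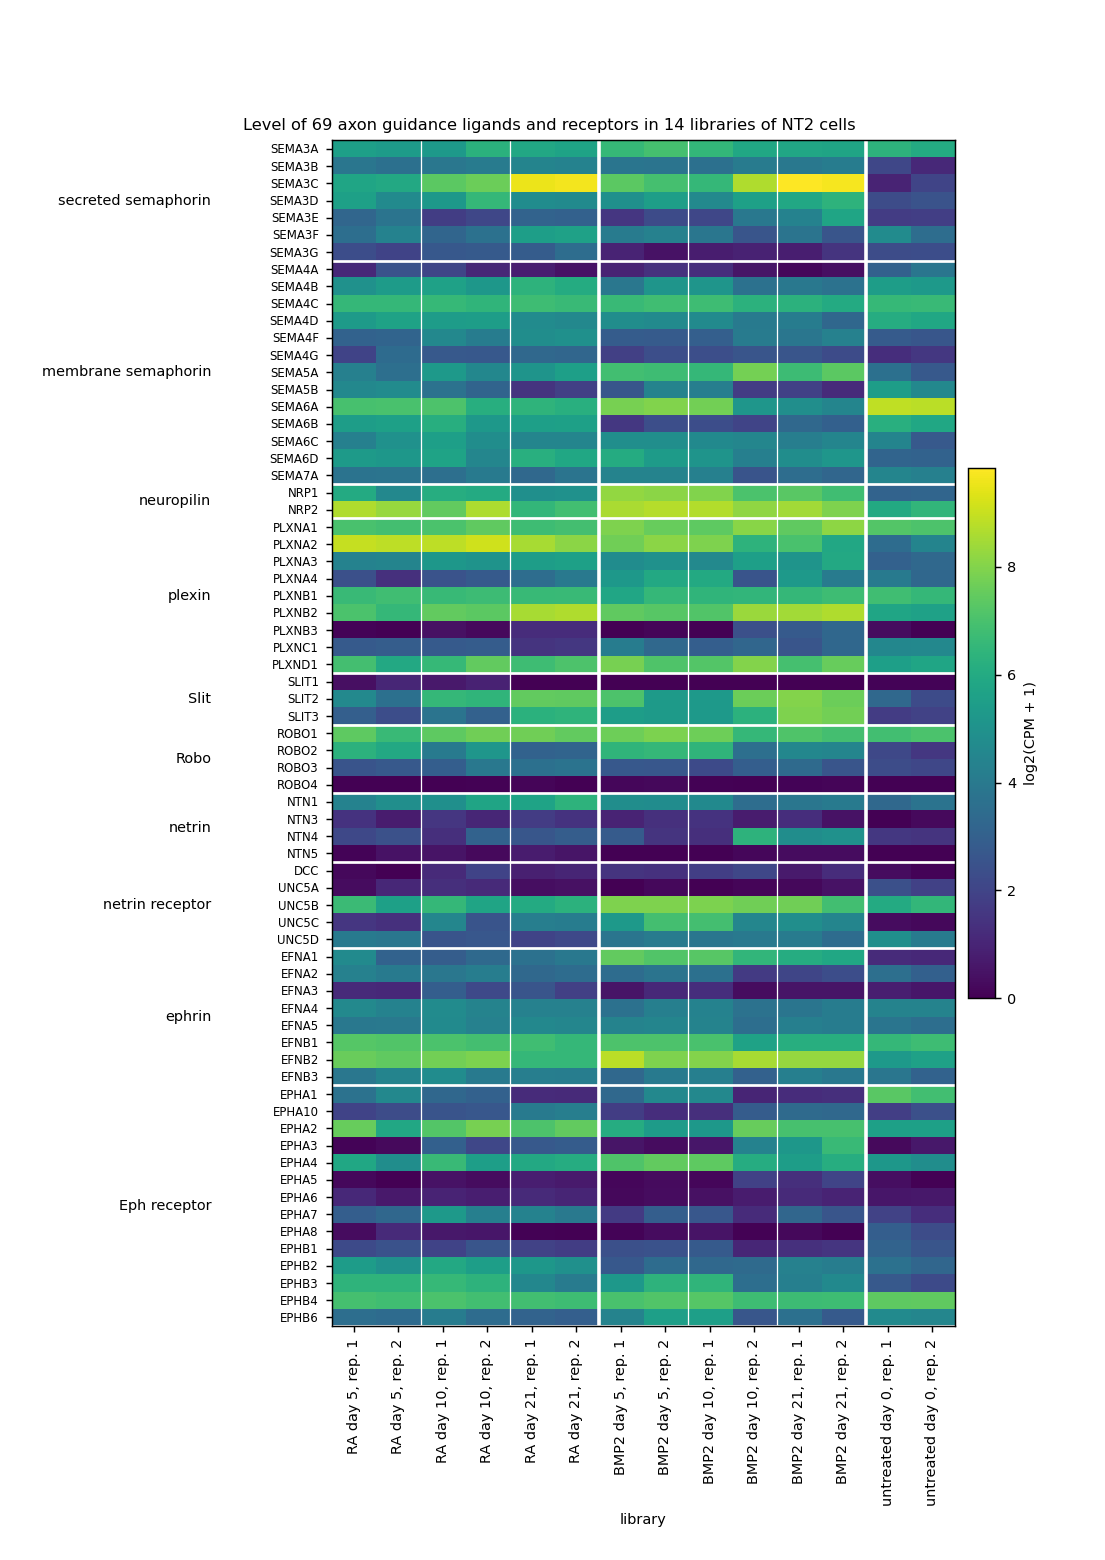
Level of each of the 69 members as log2(CPM + 1), by colour, in the 14 libraries (columns, with RA left, BMP2 in the middle and untreated right), grouped by family down the page. SEMA3C is at 747 to 910 CPM in the day 21 libraries and at 0.974 and 3.03 CPM in untreated cells, and SEMA6B is at 2.05 to 8.93 CPM in the BMP2 columns and at 37.3 CPM or above in the others.

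Among the secreted class 3 semaphorins, SEMA3C and SEMA3B rose firmly at all 6 times. SEMA3C, a ligand known for guiding neural crest cells into the cardiac outflow tract, had 53.6 and 60.2 CPM at RA day 5, 161 and 198 at RA day 10 and 747 and 806 at RA day 21. In BMP2 cells it had 162 and 121, 92.3 and 405, and 910 and 839 CPM at days 5, 10 and 21, against 0.974 and 3.03 CPM in untreated cells. Every treated library was thus above both untreated ones, and the day 21 libraries were the highest in both treatments. The log2 fold change was 4.81 ± 0.69 at RA day 5 (SE; adjusted p = 0.0032), 6.47 ± 0.75 at RA day 10 (adjusted p = 0.00056) and 8.58 ± 0.82 at RA day 21 (adjusted p = 9.9e-05). For BMP2 it was 6.12 ± 0.74 at day 5 (adjusted p = 0.00053), 6.93 ± 0.76 at day 10 (adjusted p = 0.00031) and 8.75 ± 0.82 at day 21 (adjusted p = 8e-05). All of these calls were firm. The rise within RA from day 5 to day 21 was also firm, at 3.77 ± 0.65 (adjusted p = 0.0036).

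The promoter sequences of SEMA3C and of PLXNA2, a plexin that takes part in its reception, are shown because both genes had firm rises at all 6 times. They are the 250 bases before annotated starts in RefSeq on GRCh38.p14, both on the minus strand, written in the direction of transcription, with CpG dinucleotides in capitals. The authors' counts were made on build hg19, and no coordinate is taken from them. SEMA3C has a distal start at chr7:80922390-80922639 with 2 CpG and a proximal one at chr7:80919052-80919301 with 39 CpG. The PLXNA2 window at chr1:208244385-208244634 holds 27 CpG.
SEMA3C distal: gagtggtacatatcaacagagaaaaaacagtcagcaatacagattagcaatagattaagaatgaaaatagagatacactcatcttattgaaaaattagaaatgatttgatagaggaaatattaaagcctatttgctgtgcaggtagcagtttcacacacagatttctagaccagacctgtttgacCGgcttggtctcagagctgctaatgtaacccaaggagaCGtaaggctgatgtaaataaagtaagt
SEMA3C proximal: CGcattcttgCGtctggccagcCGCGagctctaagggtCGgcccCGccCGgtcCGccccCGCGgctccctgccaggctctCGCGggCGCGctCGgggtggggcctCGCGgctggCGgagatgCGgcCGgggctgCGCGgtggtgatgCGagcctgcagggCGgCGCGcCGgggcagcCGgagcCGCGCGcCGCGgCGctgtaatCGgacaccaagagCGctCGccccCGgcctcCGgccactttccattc
PLXNA2: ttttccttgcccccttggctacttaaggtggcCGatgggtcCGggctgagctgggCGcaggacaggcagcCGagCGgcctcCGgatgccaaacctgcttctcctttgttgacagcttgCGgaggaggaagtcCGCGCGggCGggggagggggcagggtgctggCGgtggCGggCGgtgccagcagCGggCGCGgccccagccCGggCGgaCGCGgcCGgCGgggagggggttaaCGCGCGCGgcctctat

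Promoter windows were found for 59 of the 69 members, with 91 starts in all. Their median GC content was 65.2%, with a range of 34.8% to 88.8%, and their median number of CpG dinucleotides was 17, against 58.0% and 11 over all 35116 windows. The RA receptor binds direct repeats of the half-site AGGTCA. The full windows, which run on past the start, were searched on both strands. GC and CpG were taken only from the 250 bases before the start. An exact pair spaced by 5 or by 2 bases was in 0 member windows, and in 2 and 1 of all windows. With A or G allowed at the first base and G or T at the third, a pair spaced by 5 bases was in 0 member windows and 0.0883% of all. A pair spaced by 2 bases was in 1 member window, that of SEMA4A, and in 0.0399% of all. A single AGGTCA, which the exact pairs contain, was in 9 of the 91 member windows and in 13.8% of all windows. The search describes letters in these windows and says nothing of binding by the receptor elsewhere.

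Among the other secreted semaphorins, SEMA3B, a neuropilin ligand known as a tumour suppressor, had 13.6 and 11.5, 14 and 16.1, and 20.4 and 19.7 CPM at RA days 5, 10 and 21. It had 13.2 and 12.9, 11.5 and 16.0, and 14.2 and 16.4 CPM at the BMP2 days, against 3.31 and 1.17 CPM in untreated cells. The treated libraries lay in a narrow band above the untreated ones. Its firm log2 fold changes ran from 2.49 ± 0.41 at RA day 5 (adjusted p = 0.0061) to 3.17 ± 0.42 at RA day 21 (adjusted p = 0.00036).

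SEMA3D, which like SEMA3C guides neural crest and endothelial cells, had 25 to 91.7 CPM in RA cells and 24.0 to 81.4 CPM in BMP2 cells, against 3.93 and 4.76 CPM in untreated cells. Firm rises were found at 5 of the 6 times, among them 3.88 ± 0.52 at RA day 10 (adjusted p = 0.0011), 3.02 ± 0.50 at BMP2 day 10 (adjusted p = 0.0018) and 4.01 ± 0.52 at BMP2 day 21 (adjusted p = 0.00029). The rise at RA day 5 was 3.06 ± 0.50 (adjusted p = 0.0062), but it was lost without untreated replicate 1 (2.93, adjusted p = 0.063) and without untreated replicate 2 (3.21, adjusted p = 0.064).

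SEMA3E, which unlike its class acts on plexin D1 without a neuropilin, rose firmly at BMP2 day 21 alone. It had 19.4 and 53.6 CPM there and 14.2 CPM in BMP2 day 10 replicate 2, against 2.33 and 2.52 CPM in untreated cells, and the log2 fold change at day 21 was 3.91 ± 0.72 (adjusted p = 0.0017). SEMA3G, a ligand of neuropilin 2, moved the other way in BMP2. It had 0.951 and 0.409, 0.710 and 0.916, and 0.780 and 1.76 CPM at BMP2 days 5, 10 and 21, against 3.83 and 4.01 CPM in untreated cells. The fall at BMP2 day 5 was firm, at -2.53 ± 0.52 (adjusted p = 0.0061). The one at day 21 was -1.62 ± 0.50 (adjusted p = 0.023) and ended without BMP2 day 21 replicate 1 (-1.15, adjusted p = 0.14), without untreated replicate 1 (-1.66, adjusted p = 0.065) and without untreated replicate 2 (-1.59, adjusted p = 0.078). In RA cells SEMA3G had 2.92 to 10.5 CPM and passed at no day. SEMA3A, the founding repellent of the class, and SEMA3F passed in none of the comparisons with day 0, with 38.9 to 120 CPM and 5.04 to 48.3 CPM over the 14 libraries.

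Membrane-bound semaphorins changed in both directions. Their CPM summed to 390 to 583 in RA cells, to 613 and 657 at BMP2 day 5 and to 330 and 363 at BMP2 day 21, against 874 and 778 in untreated cells. Against untreated cells 4 of the 13 rose and 4 fell at RA day 21, beside 23.4% and 21.1% of all genes, and 4 rose and 6 fell at BMP2 day 21, beside 25.0% and 22.1%.

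SEMA6A and SEMA6B are transmembrane semaphorins that bind class A plexins. SEMA6A had 126 and 128, 135 and 69.8, and 84.0 and 73.3 CPM at RA days 5, 10 and 21, and 224 and 251, 214 and 34.5, and 27.8 and 21.4 CPM at the BMP2 days, against 474 and 448 CPM in untreated cells. Every treated library lay below the untreated ones, and the lowest were those of BMP2 day 21. That fall was firm, at -4.23 ± 0.69 (adjusted p = 0.0009). At RA day 21 the fall of -2.55 ± 0.64 (adjusted p = 0.0096) ended without RA day 21 replicate 1 (-2.66, adjusted p = 0.055) and without replicate 2 (-2.47, adjusted p = 0.069).

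SEMA6B separated the treatments. It had 43.4 and 47.3, 70.5 and 37.3, and 45.3 and 46.5 CPM at RA days 5, 10 and 21. In BMP2 cells it had 2.05 and 4.13, 4.04 and 3, and 8.93 and 7.14 CPM at those days, against 73.5 and 56.2 CPM in untreated cells. All 6 BMP2 libraries were below all others. The firm log2 fold changes were -4.38 ± 0.41 at BMP2 day 5 (adjusted p = 0.00018), -4.20 ± 0.40 at day 10 (adjusted p = 0.0002) and -3.01 ± 0.38 at day 21 (adjusted p = 0.00025), and it passed at no RA day.

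SEMA4D, a ligand of plexin B1 in the immune and nervous systems, had 40.0 and 50.2, 42.8 and 43.6, and 25.6 and 23.3 CPM at RA days 5, 10 and 21. It had 27.2 and 25.3, 24.8 and 15.0, and 16.3 and 8.82 CPM at the BMP2 days, against 66.8 and 56.3 CPM in untreated cells. The falls at RA day 21 (-1.33 ± 0.30, adjusted p = 0.0055) and BMP2 day 21 (-2.30 ± 0.31, adjusted p = 0.00034) were firm. SEMA4A had 0.123 and 0.336 CPM at BMP2 day 21, against 7.32 and 13.7 CPM in untreated cells, a firm fall of -5.51 ± 1.00 (adjusted p = 0.0015). SEMA5B had 1.79 and 2.59 CPM at RA day 21 and 2.71 and 1.30 CPM at BMP2 day 21, against 43.9 and 23.0 CPM in untreated cells. Its falls of -3.93 ± 0.93 (adjusted p = 0.007) and -4.06 ± 0.94 (adjusted p = 0.0057) were each lost without 1 library, RA day 21 replicate 1 (-3.70, adjusted p = 0.06) and BMP2 day 21 replicate 2 (-3.61, adjusted p = 0.055).

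Others of the membrane-bound group rose. SEMA5A, which carries thrombospondin repeats and can attract or repel, had 18.4 and 10.9, 38.7 and 22.7, and 33 and 45.8 CPM at RA days 5, 10 and 21. It had 115 and 110, 92.7 and 217, and 107 and 161 CPM at the BMP2 days, against 11.4 and 5.64 CPM in untreated cells. Every BMP2 library was above every other library. The BMP2 rises were firm, at 3.73 ± 0.52 on day 5 (adjusted p = 0.001), 4.19 ± 0.53 on day 10 (adjusted p = 0.00056) and 3.98 ± 0.53 on day 21 (adjusted p = 0.00031). SEMA6D, a plexin A1 ligand in heart development, had 21.8 to 72.5 CPM in RA cells and 17.9 to 65.4 CPM in BMP2 cells, against 7.99 and 7.58 CPM in untreated cells. Its rises of 3.06 ± 0.44 at RA day 21 (adjusted p = 0.00052), 2.77 ± 0.43 at BMP2 day 5 (adjusted p = 0.0017) and 2.00 ± 0.42 at BMP2 day 21 (adjusted p = 0.0034) were firm. SEMA4F had 27.5 and 29.6 CPM at RA day 21, against 6.04 and 5.19 CPM in untreated cells, a firm rise of 2.34 ± 0.37 (adjusted p = 0.00092). SEMA4G also rose firmly there, by a log2 fold change of 2.34 ± 0.51 (adjusted p = 0.0046), with levels of at most 9.90 CPM. The span of SEMA4G lies within other genes, whose reads may be counted with it. SEMA4C, SEMA6C and SEMA7A passed in none of the 6 comparisons.

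The neuropilins, the ligand-binding part of the class 3 semaphorin receptor and also co-receptors for vascular endothelial growth factor, were higher in treated cells. Their summed CPM was 681 and 708 at BMP2 day 5 and 467 and 344 at RA day 5, against 69.2 and 95.9 in untreated cells. NRP1 had 63.9 and 23.3, 68.4 and 63.2, and 28.7 and 30.4 CPM at RA days 5, 10 and 21. It had 300 and 281, 252 and 131, and 159 and 111 CPM at the BMP2 days, against 7.83 and 8.22 CPM in untreated cells. All treated libraries were above the untreated ones, and all BMP2 libraries were above all RA libraries. The firm log2 fold changes were 3.04 ± 0.45 at RA day 10 (adjusted p = 0.0017) and 1.88 ± 0.43 at RA day 21 (adjusted p = 0.0058). In BMP2 they were 5.18 ± 0.49 at day 5 (adjusted p = 0.00022), 4.57 ± 0.48 at day 10 (adjusted p = 0.00027) and 4.07 ± 0.47 at day 21 (adjusted p = 0.00017).

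NRP2 had 403 and 320, 176 and 398, and 90.9 and 116 CPM at RA days 5, 10 and 21, and 380 and 428, 409 and 295, and 351 and 245 CPM at the BMP2 days, against 61.4 and 87.6 CPM in untreated cells. The RA day 21 libraries had thus come near the untreated ones while the BMP2 libraries had not. The BMP2 rises were firm, at 2.44 ± 0.38 on day 5 (adjusted p = 0.0016), 2.24 ± 0.38 on day 10 (adjusted p = 0.0018) and 2.00 ± 0.37 on day 21 (adjusted p = 0.0018). The RA day 5 rise of 2.28 ± 0.38 (adjusted p = 0.0063) ended without untreated replicate 1 (2.05, adjusted p = 0.066), and RA day 21 did not pass.

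The plexins are the signalling receptors of the semaphorins. PLXNA2 had 499 and 459, 459 and 554, and 377 and 275 CPM at RA days 5, 10 and 21. It had 208 and 277, 244 and 80.7, and 127 and 59.2 CPM at the BMP2 days, against 10.1 and 20.7 CPM in untreated cells. All treated libraries were above the untreated ones, and at each day both RA libraries were above both BMP2 libraries. The firm log2 fold changes were 4.95 ± 0.61 at RA day 5 (adjusted p = 0.0014), 5.03 ± 0.61 at RA day 10 (adjusted p = 0.00069) and 4.40 ± 0.59 at RA day 21 (adjusted p = 0.00039). They were 3.97 ± 0.58 at BMP2 day 5 (adjusted p = 0.0012) and 2.59 ± 0.55 at BMP2 day 21 (adjusted p = 0.0035).

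PLXNA3 had 43.7 and 47.4 CPM at RA day 21 and 33.3 and 60.5 CPM at BMP2 day 21, against 7.26 and 8.88 CPM in untreated cells, with firm rises of 2.50 ± 0.34 (adjusted p = 0.00041) and 2.54 ± 0.34 (adjusted p = 0.00033). PLXNB2, a receptor of class 4 semaphorins, had 375 and 400 CPM at RA day 21 and 355 and 399 CPM at BMP2 day 21, against 54.5 and 48.7 CPM in untreated cells. Its rises of 2.91 ± 0.34 (adjusted p = 0.0002) and 2.87 ± 0.34 (adjusted p = 0.00019) were firm. PLXNC1, the receptor of SEMA7A, fell. It had 5.86 and 6.37, 5.84 and 6.36, and 1.81 and 2.05 CPM at RA days 5, 10 and 21, and 16.6 and 8.93, 6.58 and 8.56, and 5.01 and 8.73 CPM at the BMP2 days, against 22.5 and 22.9 CPM in untreated cells. Its falls of -1.89 ± 0.35 at RA day 10 (adjusted p = 0.0048), -3.55 ± 0.38 at RA day 21 (adjusted p = 0.00014) and -1.72 ± 0.35 at BMP2 day 21 (adjusted p = 0.0028) were firm.

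A further 3 plexins did not pass against untreated cells. PLXNA1 had 109 to 285 CPM and PLXNB1 55.2 to 112 CPM over the 14 libraries, and PLXNA4 had 1.60 to 61.3 CPM with wide spread within groups. PLXND1, the vascular plexin, had 110 and 135 CPM at RA day 21 and 120 and 185 CPM at BMP2 day 21, against 46.2 and 54.4 CPM in untreated cells. It passed at 5 of the 6 times and firmly at none: at BMP2 day 21 the rise of 1.60 ± 0.43 (adjusted p = 0.012) ended without BMP2 day 21 replicate 2 (1.27, adjusted p = 0.078) or either untreated library (1.48 and 1.72, adjusted p = 0.079 and 0.053). PLXNB3 was at or under 1.37 CPM except in 3 BMP2 libraries, which had 4.25 CPM at day 10 replicate 2 and 5.93 and 8.84 CPM at day 21.

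SLIT2 and SLIT3 rose in both treatments, and SLIT1 did not pass against untreated cells. The summed CPM was 253 and 256 at RA day 21 and 499 and 407 at BMP2 day 21, against 11.3 and 6.54 in untreated cells. SLIT3, a Slit also known in the diaphragm and heart, had 6.88 and 4.03, 12.7 and 7.32, and 76.6 and 82.9 CPM at RA days 5, 10 and 21. It had 43.6 and 40.3, 38.5 and 79.7, and 244 and 212 CPM at the BMP2 days, against 2.35 and 2.80 CPM in untreated cells. The day 21 libraries were the highest in both treatments, and at every day both BMP2 libraries were above both RA libraries. The firm rises were 1.95 ± 0.38 at RA day 10 (adjusted p = 0.0062) and 4.95 ± 0.43 at RA day 21 (adjusted p = 7.7e-05). In BMP2 they were 4.02 ± 0.41 at day 5 (adjusted p = 0.00026), 4.52 ± 0.42 at day 10 (adjusted p = 0.00018) and 6.46 ± 0.46 at day 21 (adjusted p = 4.9e-05).

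SLIT2, the best studied axon repellent of the family, had 23.9 and 11.3, 92.2 and 86.2, and 177 and 173 CPM at RA days 5, 10 and 21. It had 134 and 40.5, 37.9 and 197, and 254 and 195 CPM at the BMP2 days, against 8.90 and 3.69 CPM in untreated cells. Firm rises were found at RA day 21 (4.80 ± 0.87, adjusted p = 0.0017) and BMP2 day 21 (5.16 ± 0.88, adjusted p = 0.0011). SLIT1 was low, with 0.305 to 1.08 CPM at RA days 5 and 10, no count in the 6 BMP2 libraries, and 0.0608 and 0.0557 CPM in untreated cells. It was called higher in RA than in BMP2 at days 5 and 10, and lower at RA day 21 than at RA day 5. None of these calls was firm.

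Of the Robo receptors, ROBO2 was highest early. It had 79.8 and 60.3, 15.4 and 34.9, and 7.55 and 7.96 CPM at RA days 5, 10 and 21, and 85.3 and 92.1, 84.9 and 11, and 22.4 and 21.4 CPM at the BMP2 days, against 3.35 and 1.98 CPM in untreated cells. At BMP2 day 5 the rise was firm, at 5.06 ± 0.84 (adjusted p = 0.0022). At RA day 5 the rise of 4.72 ± 0.82 (adjusted p = 0.0081) ended without untreated replicate 1 (5.15, adjusted p = 0.055) or replicate 2 (4.39, adjusted p = 0.1). ROBO1, the main Slit receptor of commissural axons together with ROBO2, had 92.0 to 234 CPM over the 14 libraries and passed in none of the 6 comparisons. ROBO3, which regulates midline crossing, had 11.4 and 12.5 CPM at RA day 21, against 3.89 and 3.23 CPM in untreated cells. That rise of 1.75 ± 0.44 (adjusted p = 0.0093) was lost without untreated replicate 2 (1.62, adjusted p = 0.071).

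**Figure D3:**
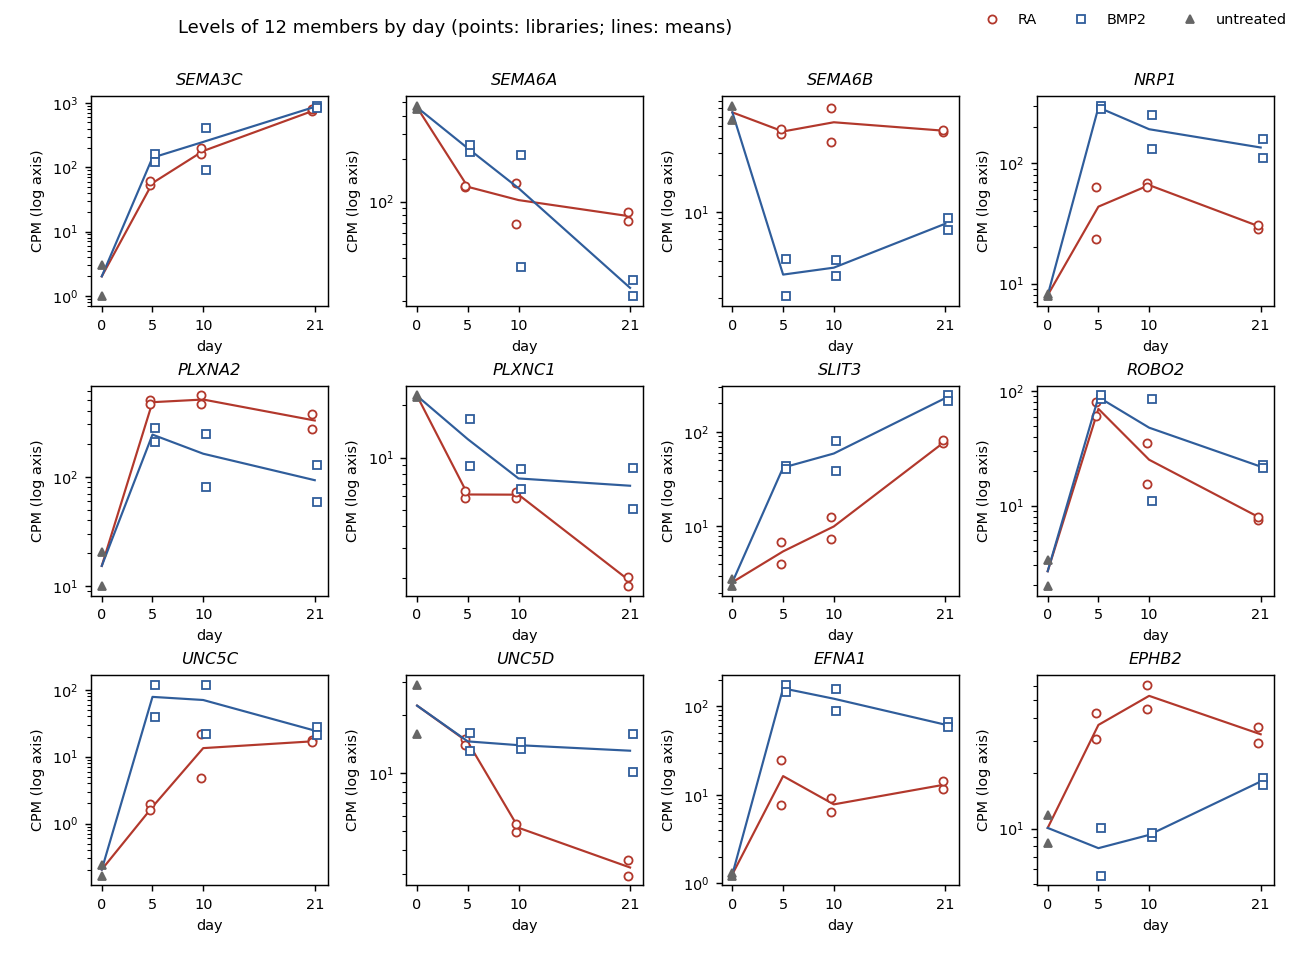
CPM on a log axis against day for 12 members, with open red circles for RA libraries, open blue squares for BMP2 libraries, grey triangles for the untreated libraries at day 0, and lines through the means of 2 libraries. SLIT3 climbs to 76.6 and 82.9 CPM at RA day 21 and 244 and 212 CPM at BMP2 day 21, while SEMA6B stays at 37.3 CPM or above in RA cells and at 8.93 CPM or below in BMP2 cells.

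The netrin system changed on both sides, with levels that were mostly low. NTN1, the classical midline attractant, had 19.5 and 27.8, 28.7 and 53.2, and 51.2 and 80.1 CPM at RA days 5, 10 and 21. It had 27.1 and 26.4, 24.1 and 10.3, and 13.4 and 15.5 CPM at the BMP2 days, against 9.11 and 12.5 CPM in untreated cells. The rise at RA day 21 was firm, at 2.60 ± 0.44 (adjusted p = 0.0012). NTN3 rose firmly there as well, by 4.35 ± 1.17 (adjusted p = 0.013), with levels of 2.32 and 1.71 CPM in RA cells, against 0 and 0.181 CPM in untreated cells. NTN4, a laminin-related netrin of basement membranes, had 27.3 and 30.7 CPM at BMP2 day 21, against 2.01 and 1.80 CPM in untreated cells. Its rise of 3.93 ± 1.38 (adjusted p = 0.039) ended in 8 of the 14 fits with 1 library left out, with values of 3.85 to 4.01. At BMP2 day 10 the call rested on replicate 2 with 81.8 CPM, and without it the log2 fold change was -0.32. NTN5 stayed at or under 0.672 CPM.

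UNC5 receptors mediate repulsion by netrins. UNC5C had 1.95 and 1.60, 22.0 and 4.86, and 17.5 and 16.6 CPM at RA days 5, 10 and 21. It had 38.9 and 118, 119 and 21.9, and 28.0 and 21.1 CPM at the BMP2 days, against 0.243 and 0.167 CPM in untreated cells. All treated libraries were above the untreated ones, and the highest were BMP2 day 5 replicate 2 and BMP2 day 10 replicate 1. The firm rises were 6.39 ± 1.08 at RA day 21 (adjusted p = 0.0012), 8.59 ± 1.16 at BMP2 day 5 (adjusted p = 0.00089), 8.44 ± 1.16 at BMP2 day 10 (adjusted p = 0.00074) and 6.91 ± 1.10 at BMP2 day 21 (adjusted p = 0.00076).

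UNC5D fell in RA. It had 15.0 and 14.1, 4.95 and 5.44, and 2.93 and 3.52 CPM at RA days 5, 10 and 21, against 28.9 and 16.1 CPM in untreated cells, while its BMP2 libraries had 10.2 to 16.2 CPM. The falls of -2.11 ± 0.32 at RA day 10 (adjusted p = 0.002) and -2.80 ± 0.33 at RA day 21 (adjusted p = 0.00021) were firm, as was the fall from RA day 5 to RA day 21, at -2.17 ± 0.32 (adjusted p = 0.0021). UNC5A had 0 to 1.52 CPM in treated libraries, against 4.32 and 2.77 CPM in untreated cells. UNC5B had 244 and 244 CPM at BMP2 day 5 and 115 to 237 CPM at later BMP2 days, against 63.2 and 90.9 CPM in untreated cells, and its rise of 1.66 ± 0.41 at BMP2 day 5 (adjusted p = 0.013) ended without untreated replicate 1 (1.42, adjusted p = 0.099). DCC, the attractive netrin receptor, was low, at 0 to 3.24 CPM in treated libraries and 0.243 and 0.0557 CPM in untreated ones. It was called higher in 3 of the 6 comparisons with untreated cells, and it differed between RA and BMP2 on at least 1 day. None of these calls was firm.

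Among the ephrins, 2 of 8 accounted for the firm changes. EFNA1, an ephrin induced in blood vessels, had 24.9 and 7.57, 6.40 and 9.15, and 11.7 and 14.4 CPM at RA days 5, 10 and 21. It had 175 and 144, 156 and 87.5, and 66.1 and 57.7 CPM at the BMP2 days, against 1.30 and 1.22 CPM in untreated cells. Every BMP2 library was above every RA library, and every RA library was above both untreated ones. The firm rises in RA were 3.68 ± 0.52 at day 5 (adjusted p = 0.0029) and 3.37 ± 0.51 at day 21 (adjusted p = 0.00071). In BMP2 they were 6.98 ± 0.60 at day 5 (adjusted p = 0.00015), 6.59 ± 0.59 at day 10 (adjusted p = 0.00016) and 5.62 ± 0.56 at day 21 (adjusted p = 0.0001).

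EFNB2, the arterial ephrin, had 189 and 171, 213 and 237, and 92.0 and 92.3 CPM at RA days 5, 10 and 21. It had 445 and 240, 254 and 371, and 306 and 313 CPM at the BMP2 days, against 39 and 48.6 CPM in untreated cells. The groups did not overlap with the untreated one, and the RA day 21 libraries were the lowest of the treated ones. The firm rises were 2.04 ± 0.28 at RA day 5 (adjusted p = 0.0024) and 2.36 ± 0.28 at RA day 10 (adjusted p = 0.00064). For BMP2 they were 2.97 ± 0.29 at day 5 (adjusted p = 0.00023), 2.83 ± 0.29 at day 10 (adjusted p = 0.00024) and 2.82 ± 0.29 at day 21 (adjusted p = 0.00011). EFNA3 and EFNA5 rose at RA days 10 and 21 with calls that were not firm. At RA day 21 EFNA3 had a log2 fold change of 2.55 ± 0.77 (adjusted p = 0.021), lost without RA day 21 replicate 1 (1.99, adjusted p = 0.12) or either untreated library (2.87 and 2.29, adjusted p = 0.07 and 0.13). EFNA2, EFNA4, EFNB1 and EFNB3 passed at no time against untreated cells.

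Among the Eph receptors, EPHA1 and EPHA8 fell firmly at day 21 of both treatments. EPHA1, an Eph receptor of epithelia, had 11.9 and 23.1, 8.66 and 7.32, and 1.34 and 1.27 CPM at RA days 5, 10 and 21. It had 9.11 and 22.8, 23.1 and 1.05, and 1.38 and 1.51 CPM at the BMP2 days, against 157 and 115 CPM in untreated cells. The falls at RA day 21 (-6.70 ± 1.19, adjusted p = 0.0016) and BMP2 day 21 (-6.56 ± 1.19, adjusted p = 0.0015) were firm. EPHA8 had 0.0299 and 0.0269 CPM at RA day 21 and 0.164 and 0 CPM at BMP2 day 21, against 6.75 and 3.83 CPM in untreated cells. The raw counts were 2 and 2 at RA day 21 and 8 and 0 at BMP2 day 21, against 333 and 275 in untreated cells, too few in the treated libraries to give the size of the falls. The 6 epithelial markers EPCAM, CDH1, KRT8, KRT18, KRT19 and CLDN4 summed to 1281 to 4501 CPM in RA cells and 4071 to 7104 CPM in BMP2 cells, against 1505 to 1756 CPM in untreated cells. KRT8 alone made up 999 to 3530 CPM in RA cells and 3119 to 5501 CPM in BMP2 cells, against 987 and 1215 CPM in untreated cells. EPCAM had 22.8 and 25.6 CPM at RA day 21 and 11.5 and 9.45 CPM at BMP2 day 21, against 211 and 197 CPM in untreated cells. The part of epithelial cells in the falls was not tested.

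EPHB2, a receptor of ephrin B ligands in axon pathfinding, was higher in RA cells. It had 42.5 and 30.8, 60.6 and 44.9, and 35.8 and 29.4 CPM at RA days 5, 10 and 21, and 5.56 and 10.1, 8.99 and 9.5, and 18.9 and 17.2 CPM at the BMP2 days, against 11.8 and 8.38 CPM in untreated cells. All RA libraries were above all others. The firm rises were 2.39 ± 0.32 at RA day 10 (adjusted p = 0.001) and 1.69 ± 0.31 at RA day 21 (adjusted p = 0.0018). EPHB2 was also called higher than in untreated cells at RA day 5 and at BMP2 day 21, but not firmly. EPHA3 had 35.5 and 101 CPM at BMP2 day 21, against 0.203 and 0.557 CPM in untreated cells, a firm rise of 7.45 ± 1.5 (adjusted p = 0.0027). At RA day 21 it had 5.66 and 6.28 CPM, and it was called higher there too, but not firmly.

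EPHB3 had 84.0 and 82.1, 95.8 and 80.2, and 22.3 and 15.9 CPM at RA days 5, 10 and 21, and 37.0 and 81.0, 86.1 and 10.6, and 18.1 and 24.5 CPM at the BMP2 days, against 5.76 and 3.66 CPM in untreated cells. It passed at all 6 times, and none of these calls was firm. At RA day 10 the rise of 4.23 ± 0.82 (adjusted p = 0.0057) ended without untreated replicate 2 (3.93, adjusted p = 0.067). EPHA7 had 37.9 and 17.7 CPM at RA day 10, against 2.86 and 1.42 CPM in untreated cells. Its rise of 3.70 ± 0.77 (adjusted p = 0.0082) was lost without untreated replicate 2 (3.28, adjusted p = 0.083). EPHB4, the venous partner of EFNB2, had 106 to 151 CPM in treated libraries, against 166 and 170 CPM in untreated cells. The fall at BMP2 day 21 was small, at -0.63 ± 0.16 (adjusted p = 0.0098), and ended without BMP2 day 21 replicate 1 (-0.60, adjusted p = 0.053), without replicate 2 (-0.65, adjusted p = 0.051) and without untreated replicate 2 (-0.62, adjusted p = 0.052). EPHA2, EPHA5, EPHA6 and EPHB6 passed at no time against untreated cells, and EPHA2 had 36.8 to 227 CPM with a wide spread. EPHA6 did differ between RA and BMP2 on at least 1 day, though not firmly.

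RA and BMP2 were also set against each other at the same day, with the untreated libraries entering only through the shared scaling and spread of the fit. At day 5, 5 members were higher and 10 lower in RA, beside 5.97% and 6.25% of all genes. The counts were 6 and 6 on day 10, beside 5.11% and 5.73%. Day 21 had 6 higher and 9 lower, beside 5.99% and 6.07%. In all, 26 members (38.2% of those tested, beside 23.2% of all genes) differed on at least 1 day and 42 on none. EFNA1, NRP1, SEMA3G, SEMA5A, SEMA6B and SLIT3 (8.82%, beside 2.89%) differed on all 3 days. Firm calls were 2 higher and 3 lower at day 5, beside 1.06% and 1.10% of all genes, 3 (EPHB2, SEMA3G and SEMA6B) and 2 (EFNA1 and SLIT3) at day 10, beside 1.14% and 0.773%, and 1 and 0 at day 21, beside 0.653% and 0.648%. At day 10, with its divided BMP2 libraries, 0 members were called in a fit of only the 4 libraries compared.

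At day 5, NRP1 had a log2 fold change of -2.74 ± 0.44 for RA over BMP2 (adjusted p = 0.005), SLIT3 of -2.95 ± 0.39 (adjusted p = 0.0024) and EFNA1 of -3.30 ± 0.50 (adjusted p = 0.0038). SEMA6B was higher in RA by 3.87 ± 0.40 (adjusted p = 0.00096) and EPHB2 by 2.22 ± 0.32 (adjusted p = 0.0031). These 5 calls were firm. UNC5C was lower in RA, at -5.47 ± 0.97 (adjusted p = 0.0077), which ended without RA day 5 replicate 2 (-5.33, adjusted p = 0.089), and so was SEMA5A, at -2.94 ± 0.50 (adjusted p = 0.0066), which ended without the same library (-2.61, adjusted p = 0.073). At day 21 the firm call was SEMA6B, at 2.51 ± 0.37 (adjusted p = 0.0042). UNC5D was lower in RA at day 21, at -2.02 ± 0.32 (adjusted p = 0.0054), lost without RA day 21 replicate 1 (-1.91, adjusted p = 0.072). EFNB2 was lower, at -1.75 ± 0.28 (adjusted p = 0.0053), lost without RA day 21 replicate 1 (-1.76, adjusted p = 0.064) or replicate 2 (-1.77, adjusted p = 0.058).

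**Figure D4:**
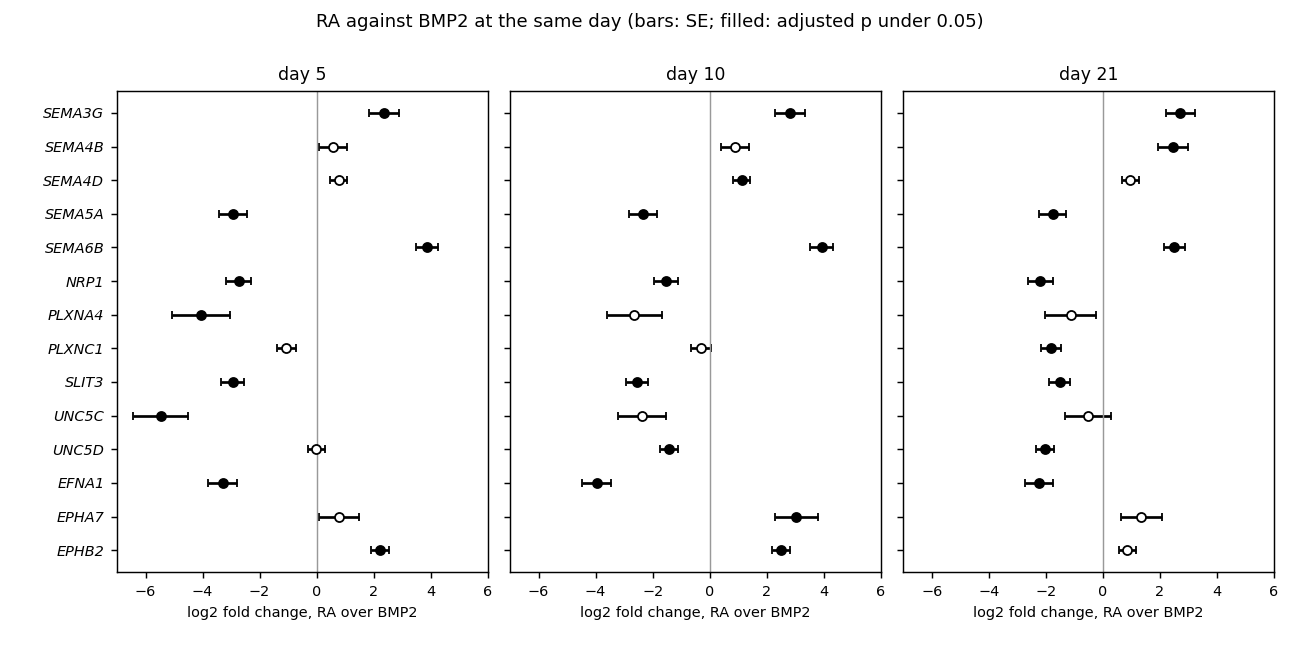
Log2 fold change of RA over BMP2 (horizontal axes, bars are SE) at days 5, 10 and 21 for 14 members named in these comparisons, with filled points for an adjusted p under 0.05. SEMA6B lies at 3.87, 3.93 and 2.51 and EFNA1 at -3.30, -3.96 and -2.24.

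Within RA, 12 members were higher and 10 lower at day 21 than at day 5, beside 13.9% and 14.8% of all genes. Firm calls were 4 higher and 1 lower, beside 3.66% and 4.36%: SEMA3C, SLIT3 (3.87 ± 0.41, adjusted p = 0.0011), PLXNB2 (1.79 ± 0.32, adjusted p = 0.0042) and SEMA4F (1.89 ± 0.37, adjusted p = 0.0054) rose, and UNC5D fell. NRP2 was lower at day 21, at -1.81 ± 0.37 (adjusted p = 0.0066), which ended without RA day 21 replicate 1 (-1.68, adjusted p = 0.061). Within BMP2, 10 were higher and 4 lower at day 21 than at day 5, beside 7.77% and 7.75%, and 0 of these calls were firm, beside 0.00522% and 0.00% of all genes. EPHA3 was higher at day 21, at 7.60 ± 1.51 (adjusted p = 0.016), which ended without BMP2 day 5 replicate 1 (8.07, adjusted p = 0.11) or replicate 2 (7.19, adjusted p = 0.082) and without BMP2 day 21 replicate 2 (6.64, adjusted p = 0.079). The change from day 5 to day 21 was then compared between the treatments. This difference passed for 0 members with edgeR, beside 1.64% of all genes (0.705% higher and 0.935% lower). An unadjusted p under 0.05 was found for 21 members, and DESeq2 called 8. The matching shares of all genes were not counted, so neither number is read as a result about the members. The lowest adjusted p was that of UNC5D, 0.054, with a difference of -2.01 ± 0.44.

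Other guidance genes outside these families were counted from fixed lists. Of 20 co-receptors, adhesion partners and further ligands, 2, 5 and 7 rose and 0, 1 and 6 fell at RA days 5, 10 and 21, and 5, 4 and 7 rose and 4, 4 and 8 fell at the BMP2 days. Of all genes, 5.59% rose and 2.72% fell at RA day 5, and 12.9% and 11.1% at RA day 10. The shares were 15.9% and 13.4% at BMP2 day 5, and 19.8% and 16.4% at BMP2 day 10. At RA day 21, 7 and 6 of 20 stand beside 23.4% and 21.1% of all genes, and at BMP2 day 21, 7 and 8 of 20 beside 25.0% and 22.1%. DSCAM, a netrin co-receptor, had 1.29 and 1.49 CPM at RA day 10 and 0.114 and 0.126 CPM at BMP2 day 5, against 12.9 and 11.4 CPM in untreated cells. Its firm falls there were -3.12 ± 0.39 (adjusted p = 0.00079) and -6.63 ± 0.47 (adjusted p = 0.0001). DRAXIN, a secreted ligand of netrin receptors, fell firmly at BMP2 day 21, at -6.60 ± 1.03 (adjusted p = 0.00069), with 0.739 and 1.30 CPM, against 84.1 and 114 CPM in untreated cells. FLRT3, a binding partner of UNC5 receptors, had 126 and 174 CPM at BMP2 day 5, against 9.35 and 11.3 CPM in untreated cells, a firm rise of 3.86 ± 0.46 (adjusted p = 0.00049).

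Of 44 intracellular effectors tested, 6, 11 and 9 rose and 3, 2 and 8 fell at RA days 5, 10 and 21, and 9, 12 and 9 rose and 2, 2 and 9 fell at the BMP2 days. Of all genes, 5.59% rose and 2.72% fell at RA day 5, and 12.9% and 11.1% at RA day 10. The shares were 15.9% and 13.4% at BMP2 day 5, and 19.8% and 16.4% at BMP2 day 10. At BMP2 day 5 and both day 10 times, a larger share of effectors rose and a smaller share fell than of all genes. Firm calls were few, with 3 higher and 1 lower at RA day 10, beside 3.84% and 2.44% of all genes. There were 2 and 1 at BMP2 day 5, beside 5.93% and 4.17%. At BMP2 day 10 there were 3 and 1, beside 8.51% and 7.91%. For BMP2 these firm shares were thus below those of all genes. The 9 and 8 of 44 at RA day 21 stand beside 23.4% and 21.1% of all genes. At BMP2 day 21, 9 and 9 of 44 stand beside 25.0% and 22.1%, so the shares at day 21 are near the background. The medians of their log2 fold changes lay between 0.03 and 0.34. PAK1, a kinase downstream of Rac and Cdc42, had 53.7 and 51.0 CPM at RA day 21 and 40.3 and 42.2 CPM at BMP2 day 21, against 303 and 251 CPM in untreated cells. Its firm falls were -2.40 ± 0.35 (adjusted p = 0.00057) and -2.75 ± 0.36 (adjusted p = 0.00028). RND1, a GTPase that binds plexins, had 33.2 and 40.2 CPM at RA day 21 and 5.91 and 3.38 CPM at BMP2 day 21, a firm difference of 2.98 ± 0.40 for RA over BMP2 (adjusted p = 0.0029). MICAL2, an oxidoreductase acting on actin in semaphorin signalling, had 59.6 and 129 CPM at BMP2 day 21, against 0.994 and 2.73 CPM in untreated cells, a firm rise of 5.65 ± 1.11 (adjusted p = 0.0024).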

How the data were processed

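RNA-seq counts per gene for the 14 NT2 libraries were used as the authors deposited them, unnormalised. Per the submitters' processing notes, STAR, featureCounts and DESeq2 were used with build hg19. Their versions, the strand setting and the counted features are not given in the sources used here. Of the counts from 1 to 19, 66.0% to 73.5% were even, so read pairs may have been counted as 2 reads.

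Symbols were matched to 25214 of the 25952 gene IDs by a gene name table and to 58 by GENCODE v29, and 680 IDs had none. Members and lists were chosen with earlier results of these data known, and firm calls were defined after results were seen. Genes passing filterByExpr (minimum count 10; 19142 genes, 99.99% of counts) were fitted over all 14 libraries with edgeR 4.0.16 in R 4.3.3: TMM factors (0.918 to 1.15), quasi-likelihood F tests, Benjamini-Hochberg adjustment over all genes in each of 12 comparisons, and SE from the fold change and F. The residual degrees of freedom were 7 and the common biological coefficient of variation was 0.368.

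Values in every library were given for the 20 members with the largest range over groups (mean of at least 5 CPM in 1 group) and the 3 largest called changes per direction and comparison whose libraries did not overlap. Other members were described beside their family. Alternatives were DESeq2 1.42.0, RLE factors, no low-count filter, a replicate block, only the libraries compared, no BMP2 day 10 libraries, and each library left out. Deviations of same-numbered libraries correlated above 0.1 in only 4 of 21 group pairs, so the numbers were not taken to pair them. Promoter windows came from RefSeq, GRCh38.p14.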

Additional observations from a re-analysis of the deposited data

Results flagged for a closer look

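The effects of RA and BMP2 at the same day differed, by edgeR's test of RA against BMP2 over all 14 libraries, for 15 of 68 members at day 5, 12 at day 10 and 15 at day 21, beside 12.2%, 10.8% and 12.1% of all genes. The values below are log2 fold changes of RA over BMP2 for the members named by rule, each past an adjusted p of 0.05. The calls held in all 14 fits with 1 library left out for SEMA6B, EPHB2, EFNA1, SLIT3 and NRP1 at day 5, for SEMA6B, SEMA3G, EPHB2, EFNA1 and SLIT3 at day 10, and for SEMA6B at day 21. The others ended in at least 1 of those fits.

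At day 5, SEMA6B (3.87), SEMA3G (2.36) and EPHB2 (2.22) were higher in RA. UNC5C (-5.47), PLXNA4 (-4.06), EFNA1 (-3.30), SLIT3 (-2.95), SEMA5A (-2.94) and NRP1 (-2.74) were lower.

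At day 10, SEMA6B (3.93), EPHA7 (3.04), SEMA3G (2.81), EPHB2 (2.51) and SEMA4D (1.12) were higher in RA. EFNA1 (-3.96), SLIT3 (-2.56), SEMA5A (-2.33), NRP1 (-1.54) and UNC5D (-1.43) were lower. None of these 10 passed in a fit of only the 4 libraries compared, where the BMP2 replicates differ from each other.

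At day 21, SEMA3G (2.72), SEMA6B (2.51) and SEMA4B (2.46) were higher in RA. EFNA1 (-2.24), NRP1 (-2.19), UNC5D (-2.02), PLXNC1 (-1.83), SEMA5A (-1.76) and SLIT3 (-1.51) were lower.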

How the results depend on the processing

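Of 160 called fold changes of 28 named members, 71 kept direction and call under every alternative and 78 lost the call without at least 1 library. The fit of only the libraries compared ended 27, the replicate block 7, RLE factors 3, and DESeq2 and the unfiltered fit 0. NTN4 at BMP2 day 10 reversed to -0.32 without BMP2 day 10 replicate 2 and was 5.43 without replicate 1. With 2 libraries a group, leaving 1 out assumes that the lone library varies like the other groups. The causes were not tested.

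Counts of called members moved as follows. RA day 5 against untreated (15) gave 23 with DESeq2, 26 with only the libraries compared, 27 without both BMP2 day 10 libraries, and 6 to 27 with 1 library left out. RA day 10 against untreated (33) gave 13 to 42 with 1 left out, the lowest without untreated replicate 2. BMP2 day 10 against untreated (35) gave 12 with only the libraries compared. RA against BMP2 at day 5 (15) gave 26 without both BMP2 day 10 libraries and 5 to 26 with 1 left out. At day 10 (12) it gave 0 with only the libraries compared and 5 to 28 with 1 left out. At day 21 (15) it gave 23 with DESeq2, 35 with only the libraries compared, 27 without both BMP2 day 10 libraries and 2 to 27 with 1 left out. RA day 21 against day 5 (22) gave 37 with only the libraries compared and 5 to 33 with 1 left out. BMP2 day 21 against day 5 (14) gave 29 with DESeq2, 26 with only the libraries compared, 32 without both BMP2 day 10 libraries and 0 to 32 with 1 left out. The difference between treatments in the change over time (0) gave 4 without the filter, 8 with DESeq2, 11 with only the libraries compared, 8 without both BMP2 day 10 libraries and 0 to 9 with 1 left out.

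With the replicate block that last count was 1, and no other count moved by over 1.5 times. Deviations of same-numbered libraries correlated above 0.1 in 4 of 21 group pairs, with a range of -0.49 to 0.28.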
